A study of Homo sapiens with 15 samples.

Results

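The Eph receptors are the largest family of receptor tyrosine kinases. Their ligands, the ephrins, are themselves held at the cell surface, so that a signal passes mainly between cells that touch. A-type ephrins are anchored by a lipid tail and B-type ephrins span the membrane, and each type mainly binds receptors of its own letter, although EPHA4 also binds B-type ephrins. Binding can send a signal into both cells, and in epithelia the family is known for holding cells apart or together at boundaries and for steering migration and invasion. The 10 genes described here were taken by symbol from the deposited table of 19612 genes. They comprise 6 receptors (EPHA1, EPHA2, EPHA4, EPHB2, EPHB3, and EPHB4) and 4 ligands (EFNA1, EFNA5, EFNB1, and EFNB2), and 12 other genes of the family in the table were set beside them.

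RNA was sequenced from H1975, an EGFR-mutant line from a human lung adenocarcinoma, and from H1975–OR, a resistant subline that the study derived by prolonged culture of H1975 in osimertinib, an inhibitor of mutant EGFR. The 15 libraries comprise 3 each of vehicle-treated H1975 (Samples 1a to 1c) and of H1975–OR given vehicle (2a to 2c), 1,25(OH)2D3, the active hormone form of vitamin D3, at 100 nM (3a to 3c), osimertinib at 500 nM (4a to 4c), or the combination of these doses (5a to 5c). All groups were held for 96 h in medium with charcoal-stripped serum and dosed at its start and at 48 and 92 h. H1975–OR cells were otherwise kept in osimertinib, so the vehicle and 1,25(OH)2D3 groups of that subline were also off the drug during these hours. Whether H1975–OR is 1 clone is not given in the sources used here, and H1975 was sequenced with vehicle only. Sample 3a was left out of the comparisons, as the study did, and its values are given apart.

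Estimated counts per library summed to between 4378030 and 6140120. Levels are given as CPM, counts scaled to a common library size by the TMM method. The lung lineage factor NKX2-1 was detected in all 15 libraries at 31.9 to 99.0 CPM. The other lung lineage markers listed were low, with at most 2.25 CPM for NAPSA, 1.90 CPM for SFTPB, and 0.827 CPM for SFTPC. Of 10 markers of leukocytes, endothelium, and fibroblasts, CD3E and MS4A1 were at 0 in each library, and the summed level of the 10 lay between 34.8 and 47.1 CPM in H1975 and between 22.7 and 29.7 CPM in vehicle-treated H1975–OR. In these 6 libraries CD68 had the highest level of the 10. It encodes a lysosomal protein of macrophages that other cells also make, and was lower in H1975–OR (12.8 to 16.2 CPM against 23.8 to 38.6 CPM). PTPRC, the marker common to leukocytes, was at 0.205 to 2.12 CPM. Of 8 epithelial markers, 6 were lower in vehicle-treated H1975–OR than in H1975 (EPCAM, CDH1, KRT19, KRT7, ESRP1, and CLDN4), KRT18 was higher, and KRT8 did not pass the test. The summed level of the 8 lay between 4770 and 6500 CPM in H1975 and between 3600 and 3940 CPM in vehicle-treated H1975–OR. The 6 mesenchymal markers did not move one way. The transcription factors ZEB1 and ZEB2, repressors of epithelial genes, were higher in vehicle-treated H1975–OR, but SNAI2, another such repressor, was lower (7.13 to 10.4 CPM against 16.6 to 23.3 CPM), as was the matrix protein FN1 (50.7 to 65.5 CPM against 509 to 958 CPM). VIM did not pass the test, and CDH2 had too few counts for it. The part of any of these markers in the values of the 10 genes was not tested. In bulk RNA, fewer cells of a kind and less RNA per cell cannot be told apart.

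The promoters of the 5 genes that differed between the lines are shown first, since the comparison of the lines turns on these genes. Each is the 250 bases before the RefSeq start site on GRCh38.p14, read 5′ to 3′ on the gene's own strand. They lie at chr7:143408857-143409106 (EPHA1, minus strand), chr1:22710588-22710837 (EPHB2, plus strand), chr13:106535663-106535912 (EFNB2, minus strand), chr2:221574203-221574452 (EPHA4, minus strand), and chrX:68828771-68829020 (EFNB1, plus strand). Capitals mark the only motif searched, the E-box CAGGTG or its reverse complement CACCTG, a sequence that ZEB and SNAI proteins are known to bind. The first 3 genes were lower and the last 2 higher in H1975–OR.
EPHA1: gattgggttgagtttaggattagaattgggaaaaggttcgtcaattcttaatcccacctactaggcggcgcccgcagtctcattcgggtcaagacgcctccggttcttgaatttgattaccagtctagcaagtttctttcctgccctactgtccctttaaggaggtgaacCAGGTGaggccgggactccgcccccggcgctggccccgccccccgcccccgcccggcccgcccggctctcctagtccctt
EPHB2: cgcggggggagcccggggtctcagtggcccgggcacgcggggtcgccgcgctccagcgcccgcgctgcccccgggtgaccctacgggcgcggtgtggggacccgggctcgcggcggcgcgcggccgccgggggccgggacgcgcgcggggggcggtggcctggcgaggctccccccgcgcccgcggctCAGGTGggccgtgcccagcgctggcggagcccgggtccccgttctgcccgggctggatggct
EFNB2: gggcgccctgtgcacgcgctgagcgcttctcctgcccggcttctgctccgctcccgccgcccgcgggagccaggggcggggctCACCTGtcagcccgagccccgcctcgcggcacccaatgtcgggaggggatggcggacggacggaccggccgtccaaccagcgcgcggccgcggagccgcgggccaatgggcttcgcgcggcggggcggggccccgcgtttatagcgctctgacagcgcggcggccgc
EPHA4: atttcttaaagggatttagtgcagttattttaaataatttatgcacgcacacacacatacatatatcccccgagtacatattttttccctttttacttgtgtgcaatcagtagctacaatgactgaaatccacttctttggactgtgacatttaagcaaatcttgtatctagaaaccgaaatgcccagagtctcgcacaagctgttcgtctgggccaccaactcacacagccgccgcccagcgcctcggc
EFNB1: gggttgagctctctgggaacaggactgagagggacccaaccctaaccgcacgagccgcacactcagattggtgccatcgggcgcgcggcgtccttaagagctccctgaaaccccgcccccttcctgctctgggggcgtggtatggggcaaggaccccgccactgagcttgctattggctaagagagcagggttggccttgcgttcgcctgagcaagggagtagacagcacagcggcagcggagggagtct
The motif occurred 1 time in each of EPHA1 (80 bases before the start), EPHB2 (62 bases), and EFNB2 (167 bases), and in none of the other 7 members. All 10 members had a promoter in the RefSeq table, and 17.5% of its 35116 promoters held the motif on either strand. This is a count of letters in a short window. It is not evidence that any factor was bound there, and it was not tested against the direction of change.

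Vehicle-treated H1975–OR and H1975 differed in 5 of the 10 genes, and the changes went both ways within receptors and within ligands. EPHA1, EPHB2, and EFNB2 were lower in H1975–OR, and EPHA4 and EFNB1 were higher. Across all 12513 genes tested in this comparison 20.1% were called at an adjusted p under 0.05, with 9.89% higher and 10.3% lower. With only 10 members the count was not tested against that share. The same 5 members had groups that did not overlap, as did 39.2% of all genes. The median log2 difference of the members was -0.19, beside 0.01 over all tested genes.

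**Figure D1:**
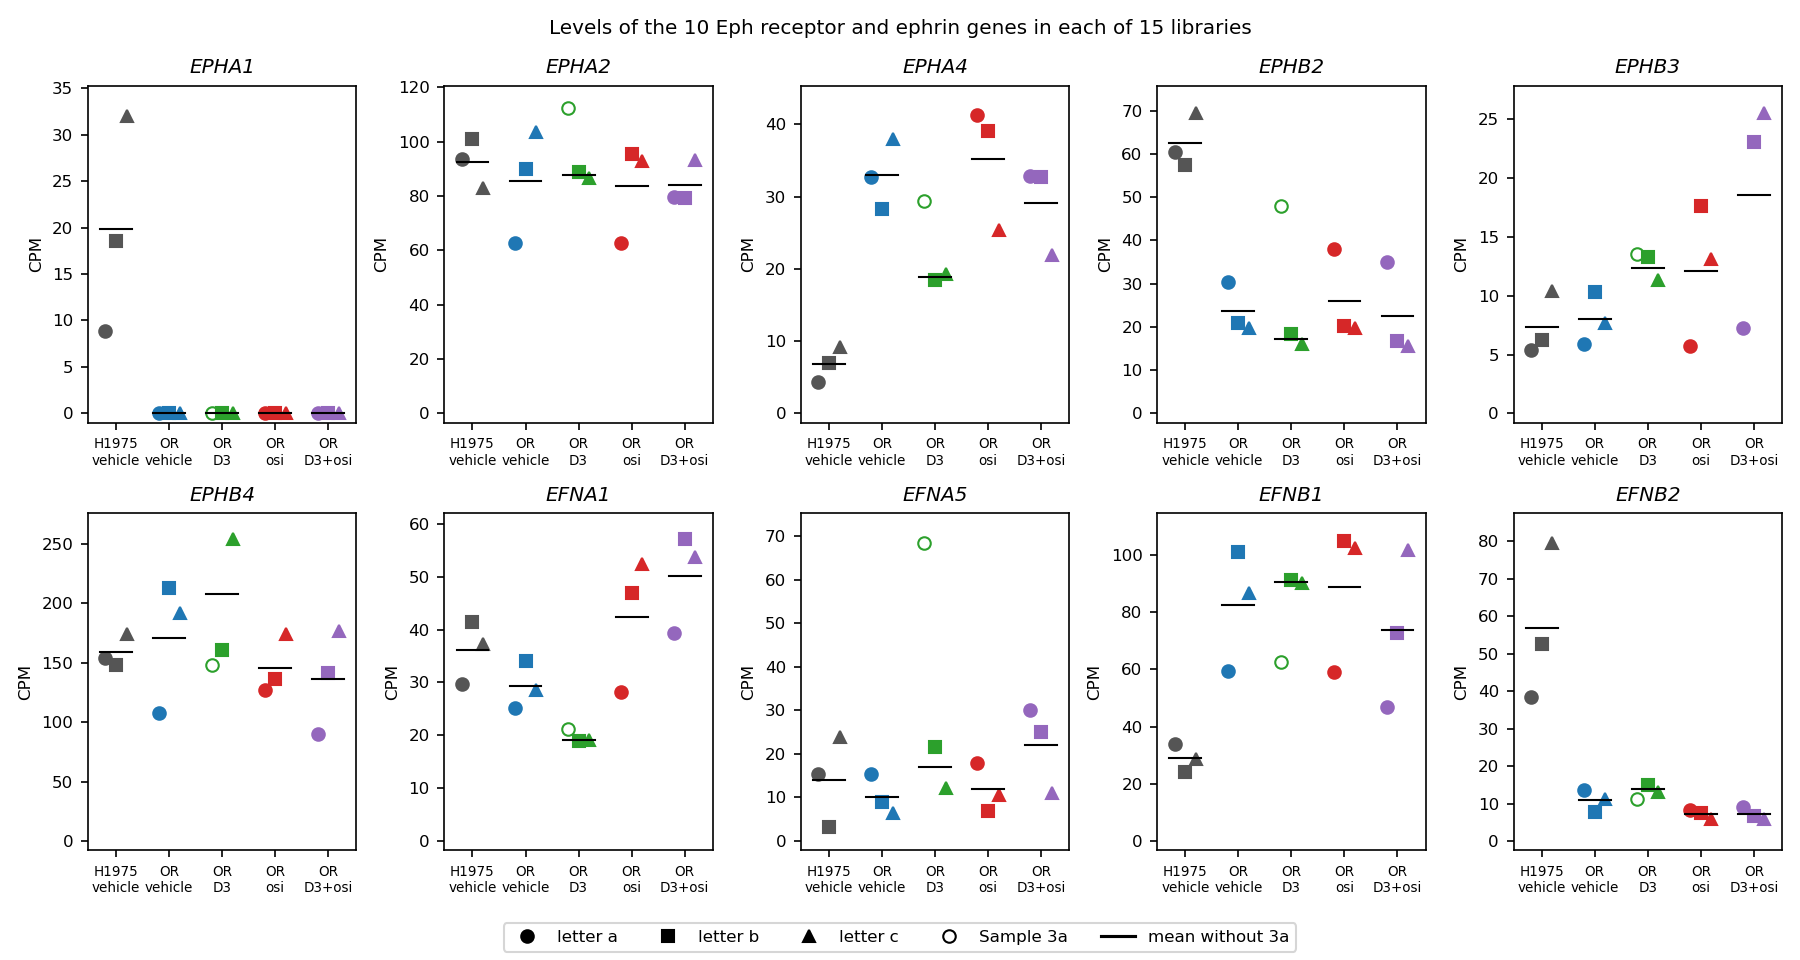
Level of each of the 10 genes in CPM (y axis, linear, from 0) in each of 15 libraries, by condition (x axis); marker shapes give the replicate letter, open circles are Sample 3a, and bars are group means without it. EPHA1 is at 0 in the 12 H1975–OR libraries, EPHA4 and EFNB1 lie higher there than in H1975, and EPHB2 and EFNB2 lie lower.

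Among receptors, EPHA1, a receptor of epithelial tissues, was the one that fell to no detectable count. Its gene lies at chr7:143390289-143408856. H1975 held 8.84, 18.6, and 31.95 CPM in Samples 1a, 1b, and 1c. All 12 H1975–OR libraries held 0 counts, whatever the treatment, where 3 counts would have been 0.477 to 0.708 CPM. Set against that floor per library, EPHA1 was at least 32.8-fold lower in vehicle-treated H1975–OR (edgeR quasi-likelihood test, adjusted p = 0.00412). It passed the filter on low counts only through the H1975 libraries. Within H1975, Sample 1a was also the lowest and 1c the highest for CDH1 (108, 239, and 384 CPM), ESRP1 (36.9, 72.7, and 95.5 CPM), and EFNB2. The same order held for EPHB3, which was not called, and for EPHA4, which was higher in H1975–OR. EPHA2, EPHB2, EPHB4, EFNA1, EFNA5, and EFNB1 did not hold it, and the order in the other epithelial markers is not given here. The part of this order in the EPHA1 values was not tested.

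The neighbourhood of EPHA1 on chromosome 7 held genes that differed and genes that did not. Within 1000000 bases on either side, 4 of 9 other tested genes were called lower and 0 higher, beside 10.3% lower and 9.89% higher of all tested genes, and so few genes were not tested against those shares. ZYX, which overlaps the end of EPHA1 on the opposite strand, had a log2 difference of -0.07 (adjusted p = 0.854), and TCAF2 on the other side had -0.21 (adjusted p = 0.614). EPHB6, a family receptor without kinase activity whose gene ends 519194 bases from EPHA1, was called lower (adjusted p = 0.0427). Its levels were 6.06, 2.00, and 0.814 CPM in H1975 and 0.205, 0, and 0 CPM in vehicle-treated H1975–OR, close to the floor, so no fold is given, and it passed the filter on low counts only through the H1975 libraries. The other 3 called lower were CTAGE4, ARHGEF35, and ARHGEF5. CTAGE4 and ARHGEF35 have near-identical copies that can share reads, so their values are uncertain.

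EPHA4, a receptor that binds ligands of both types, rose. The H1975 libraries held 4.33, 6.93, and 9.16 CPM, and the vehicle-treated H1975–OR libraries held 32.7, 28.3, and 37.98 CPM, with every H1975–OR value above every H1975 value. The level was 4.91-fold higher (log2 2.30, SE 0.29, adjusted p = 0.00154). EPHA4 lay between 18.5 and 41.3 CPM in the 12 H1975–OR libraries and so stayed above the H1975 range under each treatment.

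EPHB2, a receptor for B-type ephrins, fell. It stood at 60.5, 57.4, and 69.4 CPM in H1975 and at 30.5, 20.9, and 19.9 CPM in vehicle-treated H1975–OR, a log2 difference of -1.38 (SE 0.20, adjusted p = 0.00289). The groups did not overlap, and the highest of the 12 H1975–OR values, 47.9 CPM in Sample 3a, was also below the lowest H1975 value.

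The B-type ligands moved in opposite directions. EFNB1 rose from 33.8, 24.3, and 28.5 CPM in H1975 to 59.5, 101, and 86.8 CPM in vehicle-treated H1975–OR, a 2.88-fold difference (log2 1.53, SE 0.21, adjusted p = 0.0024). EFNB2, the ligand known from arterial vessels and from EPHB4 binding, fell from 38.5, 52.7, and 79.6 CPM to 13.7, 7.86, and 11.2 CPM, a log2 difference of -2.36 (SE 0.31, adjusted p = 0.00193). Neither ligand's groups overlapped. The ratio of EFNB1 to EFNB2 per kilobase of transcript was 1.33, 0.696, and 0.541 in the H1975 libraries and 6.57, 19.4, and 11.7 in vehicle-treated H1975–OR. In the other 9 H1975–OR libraries it lay between 7.83 and 26.1. By coding length the ratio was 0.845, 0.443, and 0.345 in H1975 and 4.18, 12.4, and 7.47 in vehicle-treated H1975–OR, so Sample 1a lay above 1 by one length and below it by the other. This ratio was formed after the values were seen and is a description.

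**Figure D2:**
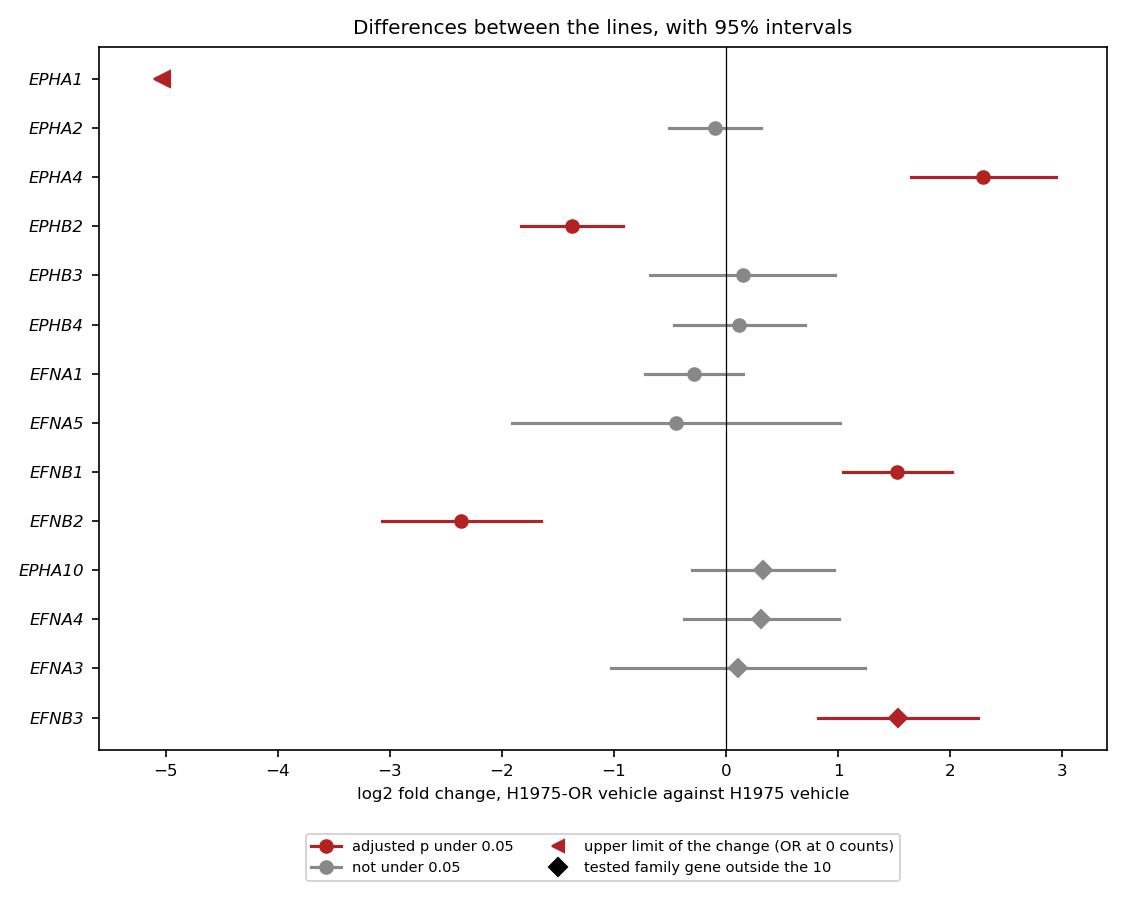
Log2 fold change of vehicle-treated H1975–OR against vehicle-treated H1975 (x axis) with 95% intervals for the 10 genes and 4 other tested family genes (y axis); red marks an adjusted p under 0.05, and the EPHA1 triangle is the limit set by 3 counts per library. EPHA4 (2.30), EFNB1 (1.53), and EFNB3 (1.54) lie to the right of 0, and EPHA1, EPHB2 (-1.38), and EFNB2 (-2.36) lie to the left.

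The other 5 members did not pass the test between the lines, and their intervals leave room for differences of unequal size. EPHA2, an epithelial receptor often studied in lung cancer, held 93.7, 101, and 82.8 CPM in H1975 and 62.8, 90.0, and 104 CPM in vehicle-treated H1975–OR (log2 -0.10, 95% interval -0.51 to 0.31). EPHB4, the usual receptor of EFNB2, held 154, 148, and 175 CPM against 108, 213, and 192 CPM (log2 0.12, interval -0.47 to 0.71). Both were expressed at similar means in the lines, but the EPHB4 libraries of H1975–OR spread widely. EFNA1, a ligand of EPHA2, had 29.6, 41.4, and 37.2 CPM against 25.2, 34.1, and 28.5 CPM (log2 -0.29, interval -0.72 to 0.15). EPHB3 had 5.37, 6.20, and 10.4 CPM against 5.93, 10.3, and 7.71 CPM (log2 0.15, interval -0.68 to 0.97). EFNA5 had 15.4, 3.10, and 23.8 CPM against 15.3, 8.89, and 6.36 CPM, and its interval was the widest, from -1.91 to 1.01 on the log2 scale. In each of the 5 the groups overlapped.

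Per kilobase of transcript, EPHB4 had the highest level of the members in both lines. In H1975 it stood at 36.5 ± 3.16 CPM per kb (SD, n = 3), followed by EPHA2 (23.4 ± 2.32) and EFNA1 (23.2 ± 3.85), whose ranges overlapped. EFNB2 (11.4 ± 4.18) and EFNB1 (8.73 ± 1.45) came next, also overlapping. EPHA1 (5.98 ± 3.51) and EPHB2 (5.66 ± 0.56) followed, and EPHA4 was the lowest at 1.07 ± 0.38. In vehicle-treated H1975–OR, EPHB4 (39.3 ± 12.8) was followed by EFNB1 (24.9 ± 6.36), EPHA2 (21.6 ± 5.25), and EFNA1 (18.9 ± 2.92), and the ranges of these neighbours overlapped. EPHA4 (5.19 ± 0.76) stood above EFNB2 (2.19 ± 0.59), EPHB2 (2.15 ± 0.53), EFNA5 (1.90 ± 0.86), and EPHB3 (1.89 ± 0.52), without overlap. The lengths were those of the MANE Select transcripts in GENCODE. With coding length instead, EFNA1 came first in H1975 (58.7 CPM per kb) and EFNB1 in H1975–OR (79.4 CPM per kb). By that length in vehicle-treated H1975–OR, EFNA5 (14.9 CPM per kb) stood above EPHA4 (11.2), and EFNB2 (10.9) was close to EPHA4.

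**Figure D3:**
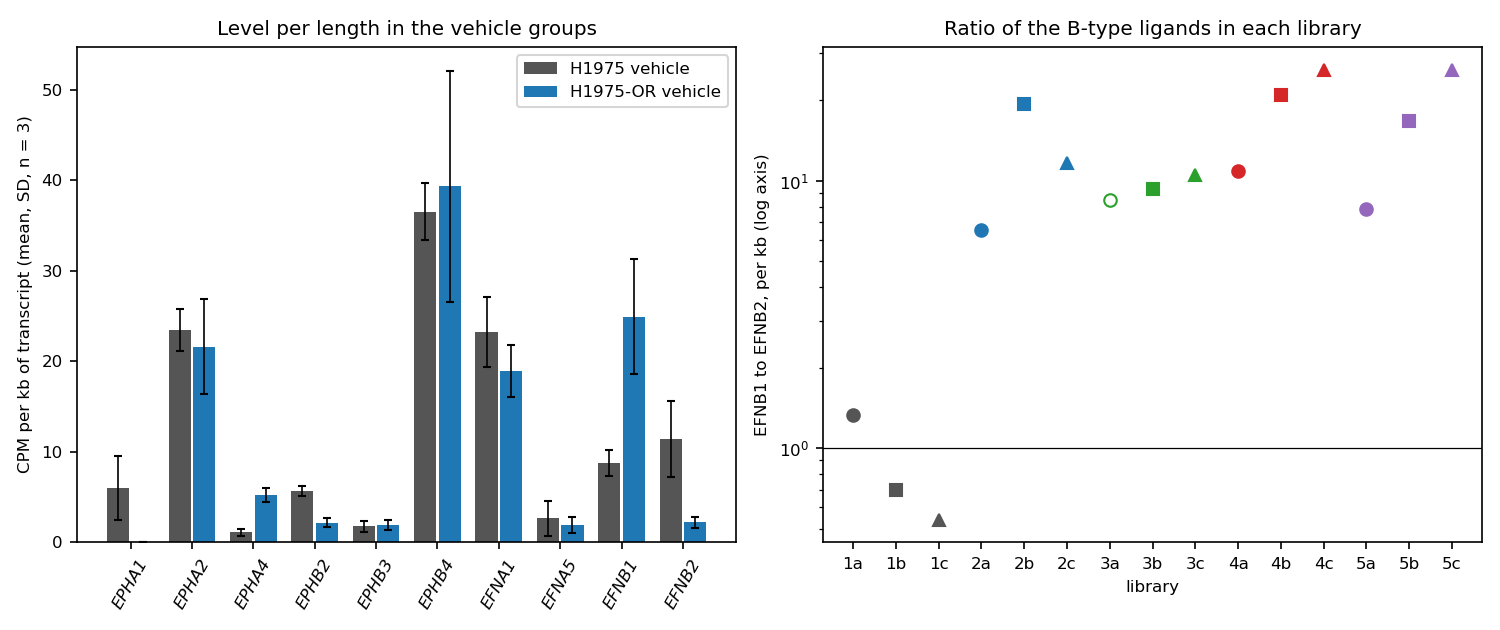
Left, mean level per kilobase of transcript (y axis, CPM per kb, bars from 0, error bars SD, n = 3) of the 10 genes (x axis) in the vehicle groups of the lines; right, ratio of EFNB1 to EFNB2 per kilobase (y axis, log scale) in each of 15 libraries (x axis). EPHB4 has the tallest bar in both lines, and the ratio is between 0.541 and 1.33 in H1975 and between 6.57 and 26.1 in H1975–OR.

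Of the 12 family genes outside the 10, 5 had enough counts to be tested between the lines. EFNB3, the remaining B-type ligand, was higher in H1975–OR, at 10.2, 9.10, and 10.2 CPM against 2.77, 3.83, and 3.66 CPM (log2 1.54, SE 0.31, adjusted p = 0.0112). EPHB6 was called lower from counts near the floor, as described above. EPHA10 (8.93 to 23.1 CPM over all 15 libraries), EFNA4 (9.77 to 19.4 CPM), and EFNA3 (0.944 to 5.88 CPM) did not pass the test. EFNA1, EFNA3, and EFNA4 are neighbours on chromosome 1, and none of the 3 was called. The rest stayed near the floor, apart from EPHB1 in Sample 3a (2.39 CPM). In the other libraries EPHB1 reached 1.20 CPM at most. EFNA2 reached 1.54 CPM, EPHA3 1.45 CPM, EPHA6 1.39 CPM, EPHA5 and EPHA8 0.409 CPM each, and EPHA7 0.236 CPM at most.

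Of 50 genes that act with Eph receptors and ephrins, 45 were tested, and 4 were called higher and 5 lower in vehicle-treated H1975–OR. Of all genes tested between the lines, 9.89% were called higher and 10.3% lower, and the counts were not tested against those shares. FYN, a SRC-family kinase recruited to both receptors and ligands, rose from 3.98, 7.84, and 2.65 CPM to 24.6, 10.6, and 11.6 CPM (log2 1.70, SE 0.48, adjusted p = 0.0406). RGS3, a partner of B-type ephrins, rose by 0.92 on the log2 scale (adjusted p = 0.027), and INPPL1, the lipid phosphatase SHIP2 that binds EPHA2, rose by 0.67 (adjusted p = 0.00981). SIPA1L1, a GTPase-activating protein that binds EPHA4, was lower by a log2 difference of -0.997 (adjusted p = 0.00857), and GIT1, a scaffold downstream of B-type ephrins, had -0.73 (adjusted p = 0.0402). The median log2 difference of the 45 was -0.10, beside 0.01 over all tested genes.

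Over the 14 libraries other than 3a, the genes whose log2(CPM + 2) levels followed each called member most closely are listed as a description, and the points share the gap between the lines. For EPHA1 they were ITGB6 (Pearson r = 0.997), RAB25 (0.996), and DAPP1 (0.996). Since EPHA1 was at 0 in every H1975–OR library, these r values rest only on the H1975 libraries and the gap between the lines. For EPHA4 they were SARDH (0.973), WNT5A (0.958), and PHF6 (0.941). EPHB2 was followed by NUP50 (0.981), DCBLD2 (0.976), and ADCY3 (0.975). EFNB1 went with ZBTB22 (0.974), C1orf115 (0.971), and CLU (0.971), and EFNB2 with SPATS2L (0.98), B3GNT5 (0.971), and CUL1 (0.968).

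Within H1975–OR, no member passed the test in any of the 6 treatment comparisons, and EPHA1 stayed at 0. That test compared group means without the replicate letter, and results with the letter as a block are given below. The comparisons share control libraries, and few genes of the whole table were called in them. With 1,25(OH)2D3 against vehicle 0.152% of the tested genes were called, with osimertinib 0.048%, with both agents against vehicle 0.496%, with both against osimertinib 0.096%, and with both against 1,25(OH)2D3 0.256%. For the interaction, the change of the 1,25(OH)2D3 effect when osimertinib was present, it was 0%, with 330 genes at an unadjusted p under 0.05 and 11 called by DESeq2. The 9 members with counts had 10 values at an unadjusted p under 0.05 over the 6 comparisons, and the ones described next were singled out for that. There were 2 with 1,25(OH)2D3 (910 of all 12513 tested genes) and 1 with osimertinib (941 of 12503). With both agents there were 3 against vehicle (1558 of all genes), 0 against osimertinib (520), and 3 against 1,25(OH)2D3 (1452). For the interaction there was 1. The 10 values were not tested against these shares.

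EFNA1 had the lowest unadjusted p of the members in 5 of these 6 comparisons. Its levels in H1975–OR were 25.2, 34.1, and 28.5 CPM with vehicle, 18.9 and 19.1 CPM with 1,25(OH)2D3 (21.2 CPM in Sample 3a), 28.2, 46.9, and 52.4 CPM with osimertinib, and 39.3, 57.1, and 53.8 CPM with both agents. The 1,25(OH)2D3 libraries lay below every vehicle library and the libraries with both agents above every vehicle library. With 1,25(OH)2D3 the log2 difference from vehicle was -0.62 (SE 0.22, adjusted p = 0.556), and with osimertinib it was 0.54 (SE 0.24, adjusted p = 0.656). With both agents it was 0.77 against vehicle (SE 0.24, adjusted p = 0.231) and 1.39 against 1,25(OH)2D3 (SE 0.28, adjusted p = 0.0881). None of these passed.

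For EFNA1 the call turned with the model. With the replicate letter as a block, which pairs libraries of the same letter, both agents against vehicle gave a log2 difference of 0.76 (SE 0.15, adjusted p = 0.0355), where 3.69% of all genes were called. Over the 19 alternatives of that comparison the adjusted p ran from 0.0355 to 0.538. Against 1,25(OH)2D3, EFNA1 was called by DESeq2 (adjusted p = 0.00127, 2.63% of genes called) and in one fit of all 14 libraries (adjusted p = 0.0494, 0.554% called). It was also called with the replicate block (adjusted p = 0.0147), where 102 of 12503 genes were called higher and 81 lower. Over the 19 alternatives the adjusted p ran from 0.00127 to 0.524. The highest values came from leaving out 1 of the 2 libraries with 1,25(OH)2D3. The interaction was 0.85 on the log2 scale for EFNA1 (SE 0.36, unadjusted p = 0.0413, adjusted p = 1).

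EPHA4 held 18.5 and 19.3 CPM with 1,25(OH)2D3, below the vehicle range of 28.3 to 37.98 CPM, and Sample 3a, at 29.4 CPM, lay inside that range. The log2 difference without Sample 3a was -0.80 (SE 0.30, adjusted p = 0.597). With osimertinib EPHA4 held 41.3, 39.1, and 25.4 CPM and with both agents 32.9, 32.7, and 21.9 CPM, so that it was 0.62 higher on the log2 scale with both agents than with 1,25(OH)2D3 (SE 0.27, adjusted p = 0.41). EFNB2 held 14.8 and 13.01 CPM with 1,25(OH)2D3 (11.1 CPM in Sample 3a), 8.18, 7.58, and 5.93 CPM with osimertinib, and 9.02, 6.58, and 5.90 CPM with both agents. Its log2 difference between both agents and 1,25(OH)2D3 was -0.96 (SE 0.34, adjusted p = 0.304). Under each treatment EFNB2 stayed below the lowest H1975 library and EPHA4 above the highest.

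EPHB3 and EFNA5 were variable with both agents. EPHB3 held 7.22, 23.0, and 25.5 CPM there, against 5.93, 10.3, and 7.71 CPM with vehicle (log2 1.204, SE 0.51, adjusted p = 0.364), and Sample 5a lay within the vehicle range. EFNA5 held 30.1, 25.2, and 11.1 CPM against 15.3, 8.89, and 6.36 CPM (log2 1.11, SE 0.49, adjusted p = 0.386), and Sample 5c lay within it. With 1,25(OH)2D3 EPHB3 was at 13.3 and 11.3 CPM (13.5 CPM in Sample 3a), and with osimertinib at 5.71, 17.6, and 13.1 CPM. EFNA5 was at 21.7 and 12.3 CPM with 1,25(OH)2D3 (68.4 CPM in Sample 3a) and at 17.9, 6.96, and 10.6 CPM with osimertinib.

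EPHA2, EPHB2, EPHB4, and EFNB1 had no unadjusted p under 0.05 with any treatment. EPHA2 lay between 62.8 and 104 CPM in the 11 H1975–OR libraries without Sample 3a, which held 112 CPM. EPHB2 held 18.5 and 16.0 CPM with 1,25(OH)2D3 (47.9 CPM in Sample 3a), 38.1, 20.3, and 19.8 CPM with osimertinib, and 35.1, 16.7, and 15.6 CPM with both agents. EPHB4 held 161 and 254 CPM (148 CPM in Sample 3a), then 128, 137, and 174 CPM, then 90.2, 142, and 177 CPM in the same order. The EFNB1 values were 91.1 and 90.3 CPM (62.5 CPM in Sample 3a), 59.2, 105, and 102 CPM, and 46.7, 72.6, and 102 CPM. For these 4 genes the range within the vehicle group exceeded the differences between group means.

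**Figure D4:**
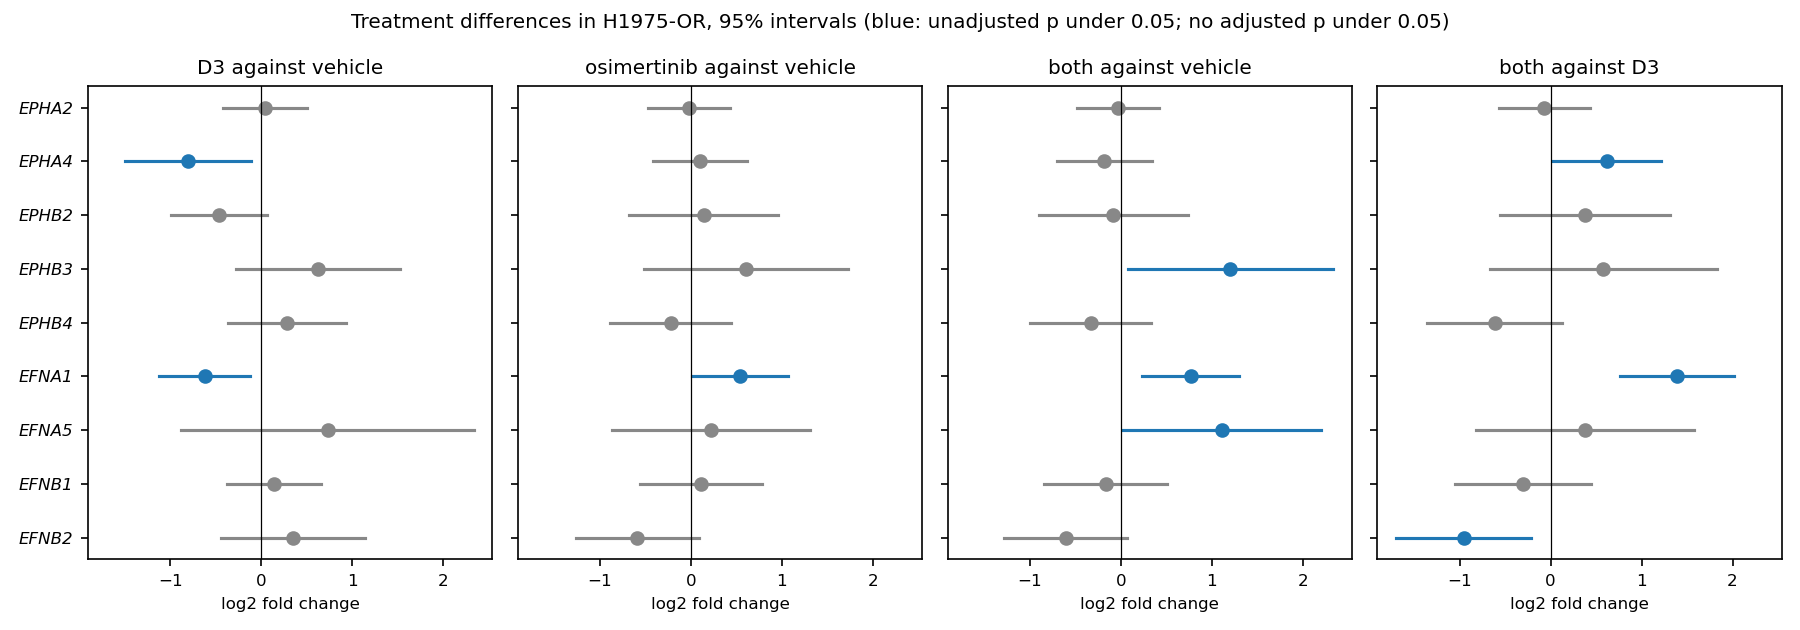
Log2 fold change (x axis) with 95% intervals of the 9 members with counts in H1975–OR (y axis) in 4 treatment comparisons without Sample 3a; blue marks an unadjusted p under 0.05, and none had an adjusted p under 0.05. EFNA1 lies at -0.62 with 1,25(OH)2D3, at 0.54 with osimertinib, at 0.77 with both agents against vehicle, and at 1.39 with both against 1,25(OH)2D3.

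Counts of members whose groups did not overlap are given beside the same share of all genes. With 1,25(OH)2D3 against vehicle these were 4 members (EPHA4, EPHB2, and EFNA1 lower, EPHB3 higher), where 25.4% of all genes did not overlap with only 2 treated libraries. With Sample 3a kept in, 2 were left, EFNA1 and EPHB3 (13.3% of all genes), since EPHA4 and EPHB2 then overlapped. With both agents against vehicle it was EFNA1 alone (16.3% of all genes), and with both against 1,25(OH)2D3 it was EPHA4, EFNA1, and EFNB2 (29.7%), of which EPHA4 overlapped with Sample 3a kept in (12.7%). With osimertinib against vehicle (12.8%) and with both agents against osimertinib (7.93%) it was 0 members. Of the 45 tested pathway genes, 0 were called in each of the 6 treatment comparisons.

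Part of the spread within H1975–OR followed the replicate letter. In each of the 4 H1975–OR conditions the library with letter a had the highest EPHB2 and EFNA5 and the lowest EPHB4 and EFNB1 of its 3. The share of counts from mitochondrial genes was 1.54% in Sample 3a, 1.04% in Sample 4a, and 1.04% in Sample 5a, against 0.424% to 0.697% in the b and c libraries of those conditions. With vehicle it was 0.746% in Sample 2a and 0.765% and 0.774% in the others. Its part in the EPHB2, EFNA5, EPHB4, and EFNB1 values was not tested.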

How the data were processed

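Stranded total RNA libraries were sequenced as 75-cycle paired-end reads by the authors, who assigned them to hg38 transcripts with Kallisto and summed transcripts to genes with tximport. What they deposited is the resulting table of estimated counts of 19612 gene symbols, unscaled. The submitters' processing notes also name CASAVA 1.8.2, STAR 2.5.2b, and kallisto 0.43.0, with no roles. Kallisto shares a read among transcripts it fits. The estimates of EFNB2 were whole numbers (tolerance 0.001) in 15 of 15 libraries and those of EPHA2, EPHA4, EPHB4, EFNA1, and EFNA5 in 0, so part of the latter can rest on shared reads. Those of EPHA1 were whole only in the 12 H1975–OR libraries, all at 0. In Samples 1a, 1b, and 1c the EPHA1 estimates were 50.93, 102.4, and 156.9, so part of these can also rest on shared reads.

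Estimated counts were rounded and tested in R 4.3.3 by edgeR 4.0.16. The low-count filter was filterByExpr with the groups (minimum count 10, minimum total 15), and genes left were TMM-scaled and compared by the two-sided quasi-likelihood test with Benjamini-Hochberg adjustment over all tested genes, at 0.05. The comparison of the lines and that of 1,25(OH)2D3 with vehicle used 8 libraries and 12513 genes, and the others the 11 H1975–OR libraries without Sample 3a and 12503 genes. SE is the log2 difference divided by the square root of F. CPM in the text used one TMM scaling of all 15 libraries. Depth was 4378030 to 6140120 estimated counts per library, and floors of 3 counts cover counting error only.

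All 10 members are named with their values, the other family genes with their range, and of the pathway genes the 3 largest rises and 3 largest falls with an adjusted p under 0.05 in a comparison. One of the falls is not reported here, so the falls printed are the other two. The members, the lists, and the motif were chosen with earlier results of these data known, and members at an unadjusted p under 0.05 were singled out after their values were seen. Positions and lengths came from GENCODE v44 on GRCh38, promoters from RefSeq.

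The study took RNA from 3 separate passages, and the labels number libraries a, b, and c without saying that a letter is a shared passage. Deviations from group means of same-letter libraries correlated at 0.124 to 0.31 for osimertinib against vehicle. For both agents they correlated at 0.118 to 0.341 against vehicle and at 0.258 to 0.464 against osimertinib. The letters may thus mark a pairing in these comparisons. The main tests used group means only and left it out, and the letter entered as a block only in the alternatives. Between the lines the correlations were -0.03 to 0.022. Alternatives were DESeq2 1.42.0, RLE size factors, the filter dropped or raised to 10 counts per library, Sample 3a included, the letter as a replicate block, other sets of samples in the fit, and each library left out in turn.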

Additional observations from a re-analysis of the deposited data

Results flagged for a closer look

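Sample 3a, which no comparison uses, held more of 4 members than any of the 3 vehicle-treated H1975–OR libraries. EPHA2 was at 112 CPM, above 104 CPM in the highest vehicle library. EPHB2 was at 47.9 CPM, above 30.5 CPM. EPHB3 was at 13.5 CPM, above 10.3 CPM, and EFNA5 was at 68.4 CPM, above 15.3 CPM. Samples 3b and 3c, given the same treatment, held 18.5 and 16.0 CPM of EPHB2 and 21.7 and 12.3 CPM of EFNA5. Sample 3a also had the highest mitochondrial share of the 15 libraries (1.54%), and its part in these values was not tested.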

How the results depend on the processing

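Between the lines the 5 calls kept their direction and their side of the threshold under each alternative that could test them, with an adjusted p of 1.24e-09 to 0.0201 for EPHA1, 2.05e-10 to 0.0105 for EPHA4, 1.73e-07 to 0.0463 for EPHB2, 1.32e-08 to 0.0148 for EFNB1, and 4.54e-10 to 0.00972 for EFNB2. EPHA1 was at 0 counts in every H1975–OR library, so no alternative could reverse its direction. A minimum of 10 counts in every library removed EPHA1 and left 4 calls. The number of members called with a treatment went from 0 to 1, EFNA1 each time, for both agents against vehicle with the replicate block and for both agents against 1,25(OH)2D3 with DESeq2, with the replicate block (log2 1.55, adjusted p = 0.0147), and in one fit of 14 libraries. The groups given 1,25(OH)2D3 and both agents share only 2 letters, too few to establish a pairing. Leaving out 1 library left the counts at 0 with each treatment. The replicate block changed no other call. Keeping Sample 3a in, an alternative chosen after seeing the data for this count, left 2 of 4 members whose groups did not overlap with 1,25(OH)2D3 against vehicle. The ratio of EFNB1 to EFNB2 by coding length was likewise added.

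Over all genes, calls depended strongly on the model: 1426 (without Sample 1b) to 3041 (DESeq2) around 2521 between the lines, 5 (without Sample 3c) to 124 around 19 with 1,25(OH)2D3, 1 (without Sample 2b) to 117 around 6 with osimertinib, 4 (without Sample 2c) to 461 (replicate block) around 62 with both agents against vehicle, 2 to 66 around 12 against osimertinib, and 0 (without Sample 3c) to 329 around 32 against 1,25(OH)2D3. The cause was not tested. For members near the floor and for EFNA5 and EPHB3, depth and the spread between libraries limit what could be seen.

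Of 1167 values of 64 member differences under the alternatives, 71 changed sign, none of them for a member called in the first place, and their causes were not tested. They are given on the log2 scale. Between the lines, leaving out 1 library gave EPHA2 -0.26 to 0.061, EPHB3 -0.08 to 0.46, EPHB4 -0.071 to 0.35, and EFNA5 -0.94 to 0.13. For 1,25(OH)2D3 against vehicle, leaving out 1 library gave EPHA2 -0.14 to 0.20, EPHB4 -0.083 to 0.58, and EFNB1 -0.047 to 0.31. With the replicate block it was -0.035 for EPHA2. In the 11 H1975–OR libraries with the replicate block they were -0.075 for EPHA2 and -0.088 for EFNB1. With Sample 3a kept in they were 0.22 for EPHB2 and -0.016 for EFNB1. For osimertinib against vehicle, leaving out 1 library gave EPHA2 -0.20 to 0.15, EPHA4 -0.028 to 0.29, EPHB2 -0.24 to 0.36, EFNA5 -0.20 to 0.64, and EFNB1 -0.076 to 0.34. For both agents against vehicle, leaving out 1 library gave EPHA2 -0.21 to 0.14, EPHB2 -0.56 to 0.14, and EFNB1 -0.47 to 0.0801. With the replicate block it was 0.0015 for EPHA2. For both agents against osimertinib, leaving out 1 library gave EPHA2 -0.18 to 0.10, EPHB2 -0.70 to 0.16, EPHB4 -0.34 to 0.12, and EFNB2 -0.22 to 0.10. With the replicate block it was 0.021 for EPHA2. In one fit of 14 libraries it was 0.0049 for EPHA2. For both agents against 1,25(OH)2D3, with the replicate block they were 0.077 for EPHA2 and -0.012 for EPHB2. Leaving out 1 library gave EPHB2 -0.11 to 0.59. With Sample 3a kept in they were -0.29 for EPHB2 and -0.63 for EFNA5. For the change of the 1,25(OH)2D3 effect by osimertinib, leaving out 1 library gave EPHA2 -0.22 to 0.13, EPHB2 -0.25 to 0.61, EPHB3 -0.37 to 0.36, and EFNA5 -0.27 to 0.62. With the replicate block they were 0.10 for EPHA2, -0.11 for EPHB2, 0.34 for EPHB3, and -0.25 for EFNA5. With Sample 3a kept in they were -0.43 for EPHB2 and -0.85 for EFNA5.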
